A study of Mus musculus with 6 samples.

Results

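The Wnt ligands, Frizzled receptors and secreted Wnt regulators of activated muscle stem cells (MuSCs) were read from RNA-Seq of cells sorted from injured muscle. Members were chosen by symbol, as the Wnt, Fzd, Sfrp, Dkk and Rspo genes. No measured value entered that rule, but earlier results of these data were known when it was set. There were 41 such genes among the 49671 in the files, comprising 19 Wnt ligands, 10 Frizzled receptors, 4 secreted frizzled-related proteins, 4 Dickkopf genes and 4 R-spondins. All 41 were annotated as protein-coding in GENCODE M21. Each of 6 libraries came from 1 female C57BL/6 mouse aged 4 to 6 months, and both tibialis anterior (TA) muscles of a mouse were pooled. All mice received 50 µL of 1.2% BaCl2 in each TA muscle, which kills myofibers and activates MuSCs, and cells were collected at day 3. There were 3 mice given 100 ng of resolvin D1 (RvD1), a lipid mediator made from docosahexaenoic acid during the resolution of inflammation, by daily intraperitoneal injection. The other 3 mice received the vehicle alone, and the injections of both groups contained 0.1% ethanol. No transgene or mutant allele was named in either group, and no uninjured library was analysed here. The labels describe the sort as Ter119-, CD31-, CD45-, Sca1-, CD11b-, CXCR4+ and β1-integrin intermediate, whereas the study's methods list no CD31 antibody. The question addressed here was which Wnt components injured-muscle MuSCs transcribe, and whether RvD1 changed their level.

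Wnts are secreted lipid-modified glycoproteins that bind Frizzled receptors together with the co-receptors Lrp5 and Lrp6, and this stabilizes β-catenin, which then acts with Tcf/Lef factors in the nucleus. Other Wnt-Frizzled pairs act without β-catenin, through planar cell polarity or calcium. Secreted frizzled-related proteins bind Wnts outside the cell, Dickkopf proteins mostly block Lrp5 and Lrp6, and R-spondins raise Frizzled levels by removing the ubiquitin ligases Rnf43 and Znrf3 from the surface. In regenerating muscle, Wnt signals are known to affect MuSC self-renewal, polarity and differentiation.

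Promoter sequence was the first feature examined that the choice of members did not use. RefSeq promoters (GRCm38.p6, the assembly behind mm10) were found for 27 of the 41 genes, with 30 start sites, and the 250 bases upstream of each start were read. The median number of CG dinucleotides in this window was 22 for these genes, compared with 10 for 21263 promoters of protein-coding genes and 6 for all 32851 promoters. The 4 windows shown are those of the ligand, receptor and secreted regulator with the highest levels in these libraries, followed by that of Wnt7a, a ligand known to expand MuSCs that had 1 count in all. Capitals mark CG dinucleotides, and each sequence runs 5′ to 3′ on the strand of the gene. They lie at chr11:59306680-59306929 (plus strand) for Wnt9a, chr7:89404116-89404365 (plus) for Fzd4, chr3:83766071-83766320 (plus) for Sfrp2 and chr6:91411354-91411603 (minus) for Wnt7a.
Wnt9a: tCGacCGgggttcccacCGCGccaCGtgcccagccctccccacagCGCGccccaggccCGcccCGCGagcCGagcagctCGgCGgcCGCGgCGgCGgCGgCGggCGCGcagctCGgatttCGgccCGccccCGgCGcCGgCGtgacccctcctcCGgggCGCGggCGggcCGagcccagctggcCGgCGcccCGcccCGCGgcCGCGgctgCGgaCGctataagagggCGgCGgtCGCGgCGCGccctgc
Fzd4: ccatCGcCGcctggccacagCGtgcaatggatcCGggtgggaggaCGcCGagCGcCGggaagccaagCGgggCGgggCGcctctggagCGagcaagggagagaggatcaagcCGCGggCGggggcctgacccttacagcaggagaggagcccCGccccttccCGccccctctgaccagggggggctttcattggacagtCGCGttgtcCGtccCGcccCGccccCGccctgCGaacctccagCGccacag
Sfrp2: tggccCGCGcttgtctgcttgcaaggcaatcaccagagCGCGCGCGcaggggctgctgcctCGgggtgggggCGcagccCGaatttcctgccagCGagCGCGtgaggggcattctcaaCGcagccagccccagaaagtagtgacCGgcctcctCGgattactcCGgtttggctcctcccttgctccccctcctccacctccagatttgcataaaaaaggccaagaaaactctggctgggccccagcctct
Wnt7a: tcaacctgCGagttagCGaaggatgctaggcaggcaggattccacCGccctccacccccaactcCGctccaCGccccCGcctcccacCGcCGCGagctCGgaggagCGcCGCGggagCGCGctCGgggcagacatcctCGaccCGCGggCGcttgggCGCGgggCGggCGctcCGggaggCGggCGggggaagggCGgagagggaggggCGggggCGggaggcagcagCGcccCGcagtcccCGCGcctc
These windows held 48, 25, 16 and 34 CG dinucleotides, respectively, so Sfrp2 had the fewest of the 4 and the highest level, while the nearly silent Wnt7a exceeded Fzd4. The median was 26.5 for 14 start sites of genes with enough counts to be tested and 22 for 16 start sites of the others. On either strand, the letters TATAAA occurred in 4 of 30 member windows (13.3%), 11.6% of protein-coding windows and 12.4% of all windows. The E-box CAGCTG occurred in 2 (6.67%), 12.1% and 13%, and ATCAAAG, a Tcf/Lef-type motif, in 2 (6.67%), 2.82% and 3.21%, respectively. These matches describe letters in a window and not bound sites.

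The MuSC libraries contained from 16148026 to 28149176 expected counts. Levels are given in TPM, a unit scaled for transcript length and library total, which allows genes to be set beside each other. The 12 myogenic markers summed to 3278 to 4048 TPM with RvD1 and 3013 to 3385 TPM with vehicle, and Myog and Myod1, regulators of myogenic commitment, averaged 977 and 355.8 TPM. Markers of other cells were also present, with sums of 1321 to 2939 TPM with RvD1 and 1489 to 1681 TPM with vehicle for 12 fibro-adipogenic markers. Most of that sum came from Col3a1, Col1a2, Gsn, Dcn and Col1a1 (means of 529.6, 407.1, 303.9, 256.7 and 168.3 TPM), while Pdgfra averaged 2.717 TPM. Of the 12, 11 averaged higher with RvD1 and 1, Ly6a, lower. Acta2 likewise made up most of the mural sum, and Thbs4 most of the tenocyte sum. The 12 leukocyte markers summed to 43.78 to 66.14 and 59.34 to 101.5 TPM, and 10 endothelial markers to 18.22 to 25.36 and 11.53 to 33.54 TPM. None of the listed markers was at 0 in every library, and Ly6a, which encodes the Sca1 antigen excluded by the sort, was read at 17.25 to 39.72 TPM. RvD1 replicate 1 stood apart, with the highest sums of fibro-adipogenic (2939 TPM), tenocyte (1136 TPM), mural (630.2 TPM) and Schwann cell (44.71 TPM) markers of the 6 libraries. Among the myogenic markers, this library also had the highest Chodl (122.77 TPM, against 10.81 to 27.54 TPM elsewhere), Megf10 (54.07 TPM) and Pax7 (8.5 TPM). Myf5, Vcam1, Sdc4 and Fgfr4 were highest there too, and Myod1 was lowest (238.88 TPM). Myog, Itga7, Cdh15 and Des lay within the range of the other libraries. The part of these markers in any result was not tested, and in bulk RNA fewer cells of a type cannot be told apart from less RNA per cell.

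The repertoire was uneven. Of the 41 genes, 17 averaged at least 1 TPM and 3 had 0 counts in every library. By class, 5 of 19 Wnts, 8 of 10 Frizzleds, 3 of 4 Sfrps, 1 of 4 Dickkopfs and 0 of 4 R-spondins reached a mean of 1 TPM. Summed over a class and averaged over the 6 libraries, Frizzled transcripts reached 58.38 ± 7.938 TPM (SD, n = 6), Sfrps 28.39 ± 7.697 TPM, Wnts 24.54 ± 2.157 TPM and Dickkopfs 3.023 ± 1.17 TPM. R-spondin transcripts were nearly absent at 0.2667 ± 0.1242 TPM.

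**Figure D1:**
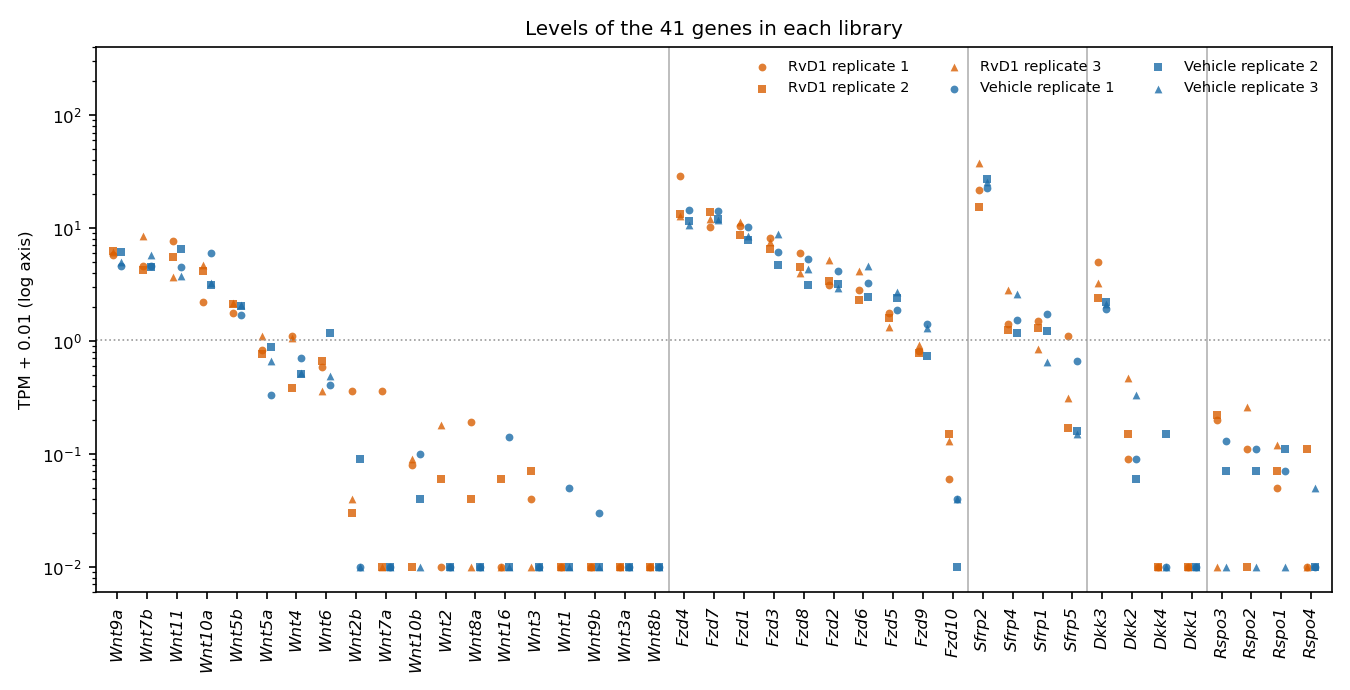
TPM of each of the 41 genes (y axis, TPM + 0.01, log scale) in the 6 libraries, grouped by class and ordered by mean level, with orange for RvD1, blue for vehicle and a marker shape for each replicate number. The dotted line marks 1 TPM, which 17 genes exceeded on average, and points at the bottom are libraries with a value of 0.

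Among the ligands, Wnt9a, Wnt7b, Wnt11, Wnt10a and Wnt5b made up nearly all of the Wnt transcripts. Wnt9a was highest on average, with 5.80, 6.24 and 6.17 TPM with RvD1 and 4.63, 6.12 and 5.04 TPM with vehicle. It held 23.09% ± 1.939 (SD, n = 6) of the summed Wnt TPM, yet 2 of the 6 libraries had more Wnt7b than Wnt9a. The levels of Wnt7b, a ligand that can signal through β-catenin, were 4.56, 4.25 and 8.40 TPM with RvD1 and 4.61, 4.52 and 5.76 TPM with vehicle. In both groups the third replicate had the most Wnt7b, and the groups overlapped. Wnt11, which is known mainly for signaling without β-catenin, measured 7.72, 5.57 and 3.68 TPM with RvD1 and 4.46, 6.45 and 3.77 TPM with vehicle. The ranges of Wnt9a, Wnt7b and Wnt11 overlapped, so their order is not resolved. Wnt10a followed at 3.89 ± 1.325 TPM and overlapped Wnt11. The next ligand, Wnt5b, lay below Wnt10a in all 6 libraries at 1.978 ± 0.1959 TPM, and its range of 1.70 to 2.14 TPM was the narrowest of these 5 ligands.

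Wnt5a, Wnt4 and Wnt6 were present between 0.32 and 1.17 TPM, and all 3 ranges overlapped. The other 11 ligands did not pass the filter on low counts. Wnt2b had 13, 1 and 1 counts with RvD1 and 0, 3 and 0 with vehicle. No more than 4 counts in any library were assigned to Wnt1, Wnt2, Wnt3, Wnt7a, Wnt8a, Wnt9b, Wnt10b or Wnt16. Wnt3a, which is widely used as a recombinant activator of β-catenin signaling, and Wnt8b had 0 counts throughout. A count of 0 allows up to 3 counts, which corresponds to 0.107 to 0.186 CPM (counts scaled to the library total) depending on the library, and intervals and limits of this kind cover counting error only.

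Of the receptors, 8 exceeded 1 TPM on average, from Fzd4 at 15.17 ± 6.694 TPM to Fzd5 at 1.938 ± 0.5132 TPM (SD, n = 6). Fzd4, which serves as a receptor for Norrin (Ndp) as well as Wnts, measured 28.56, 13.29 and 12.77 TPM with RvD1 and 14.34, 11.46 and 10.59 TPM with vehicle. RvD1 replicate 1 stood clear above the other 5 libraries, while the other 2 RvD1 libraries lay within the vehicle range. Fzd7, a receptor described in MuSCs for Wnt7a, measured 10.10, 13.93 and 11.96 TPM with RvD1 and 14.19, 12.09 and 11.81 TPM with vehicle. Fzd7 was lowest where Fzd4 was highest, and Fzd4 exceeded Fzd7 in 3 of the 6 libraries. The closely related Fzd1 measured 10.38, 8.70 and 11.18 TPM with RvD1 and 10.15, 7.76 and 8.54 TPM with vehicle.

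The remaining receptors in order of level were Fzd3 (6.952 TPM), Fzd8 (4.548 TPM), Fzd2 (3.672 TPM), Fzd6 (3.255 TPM), Fzd5 and Fzd9 (0.9817 TPM). Each of these overlapped its neighbour in range, but Fzd3 was above Fzd8, Fzd6 above Fzd5, and Fzd5 above Fzd9 in all 6 libraries. Fzd10, with 0 to 8 counts, was separated from Fzd9 in every library. Grouped by sequence relationship, Fzd1, Fzd2 and Fzd7 together held 44.17% ± 5.98 (SD, n = 6) of Frizzled TPM, Fzd4, Fzd9 and Fzd10 27.15% ± 6.999, Fzd3 and Fzd6 17.54% ± 3.712, and Fzd5 and Fzd8 11.14% ± 1.192. The first group led in 5 libraries. In RvD1 replicate 1 it held 32.92%, and the group with Fzd4 held 40.98%.

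**Figure D2:**
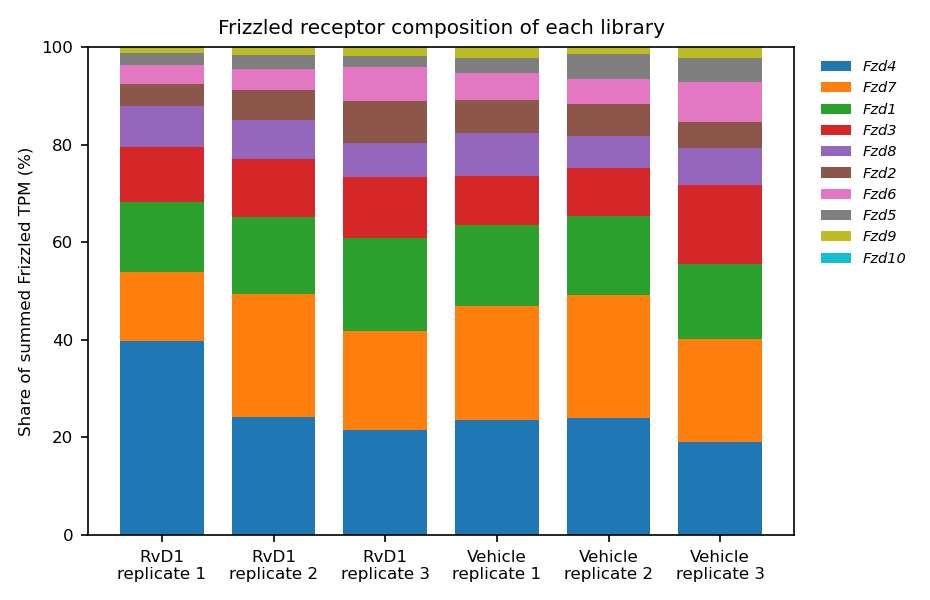
Share of the summed Frizzled TPM (y axis, 0 to 100%) held by each receptor in each of the 6 libraries, stacked in order of mean level. Fzd4 takes 39.79% in RvD1 replicate 1 and 19.03% to 24.12% in the other 5 libraries.

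Secreted antagonists were led by Sfrp2, the most abundant of all 41 genes. Sfrp2, an extracellular Wnt-binding protein that is also abundant in fibroblastic cells, measured 21.51, 15.31 and 37.64 TPM with RvD1 and 22.75, 27.35 and 25.36 TPM with vehicle. The RvD1 libraries included both the lowest and the highest value, while the vehicle libraries lay close together. Sfrp2 alone was at about the level of all Wnt ligands summed and held 87.51% ± 3.011 (SD, n = 6) of the Sfrp transcripts. Sfrp4 was far lower, at 1.39, 1.24 and 2.82 TPM with RvD1 and 1.51, 1.17 and 2.61 TPM with vehicle. As with Wnt7b, the third replicate was the highest in both groups. Sfrp1 measured 1.48, 1.30 and 0.84 TPM with RvD1 and 1.72, 1.22 and 0.64 TPM with vehicle, and here the third replicate was the lowest in both groups. Sfrp5 had 26, 5 and 6 counts with RvD1 and 12, 3 and 3 counts with vehicle and was not tested.

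Among the Dickkopf genes, Dkk3 held 92.56% ± 4.621 (SD, n = 6) of the class sum. Dkk3 is a divergent member of the family that, unlike Dkk1, does not bind Lrp6 in the classical way. The canonical Lrp6 inhibitor Dkk1 had 0 counts in every library, Dkk4 had 2 counts in 1 vehicle library, and Dkk2 had 4, 9 and 18 counts with RvD1 and 3, 2 and 14 counts with vehicle. R-spondin genes were at the edge of detection, and the highest value of any of them was 0.25 TPM for Rspo2 in RvD1 replicate 3. Rspo1, Rspo2, Rspo3 and Rspo4 each had at least 1 library with a count in both groups, and none passed the filter.

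The effect of RvD1 was then compared with vehicle by edgeR's quasi-likelihood test on the expected counts, for the 21 genes that passed the filter among 14494 genes tested in all. At a Benjamini-Hochberg adjusted p of 0.05, 0 of the 21 genes changed, and 0% of all genes were called. The smallest adjusted p in the whole table was 0.971. DESeq2 also called 0 genes after adjustment, and edgeR with no filter on low counts called 12, with 0 of the 41 members and 0 of the pathway genes among them. At an unadjusted p under 0.05, 1 of the 21 genes (Dkk3) was called, against 3.47% of all genes (1.83% higher and 1.64% lower with RvD1). On normalized log2 CPM, the groups did not overlap for 2 of the 21 genes, Dkk3 and Wnt5a, both higher with RvD1, against 9.62% of all genes (4.8% higher and 4.83% lower). The counts of members were thus near the shares over all genes. The other 20 members were below the filter and gave no test.

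Fold changes were small throughout. The log2 fold change was above 0 for 12 and below 0 for 9 of the 21 genes, with a median of 0.09, compared with 0.01 over all genes tested. Of all 14494 genes tested, 7749 were above and 6745 below 0. The median absolute log2 fold change was 0.126, against 0.128 over all genes. The largest was 0.73 (Wnt5a) and the lowest was -0.53 (Fzd9). The precision was limited, because the median within-group SD of these genes was 0.387 on the log2 CPM scale, against 0.205 over all genes, and the half-widths of the 95% intervals ran from 0.299 to 1.15. Differences smaller than these widths were not resolved with 3 mice in each group.

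**Figure D3:**
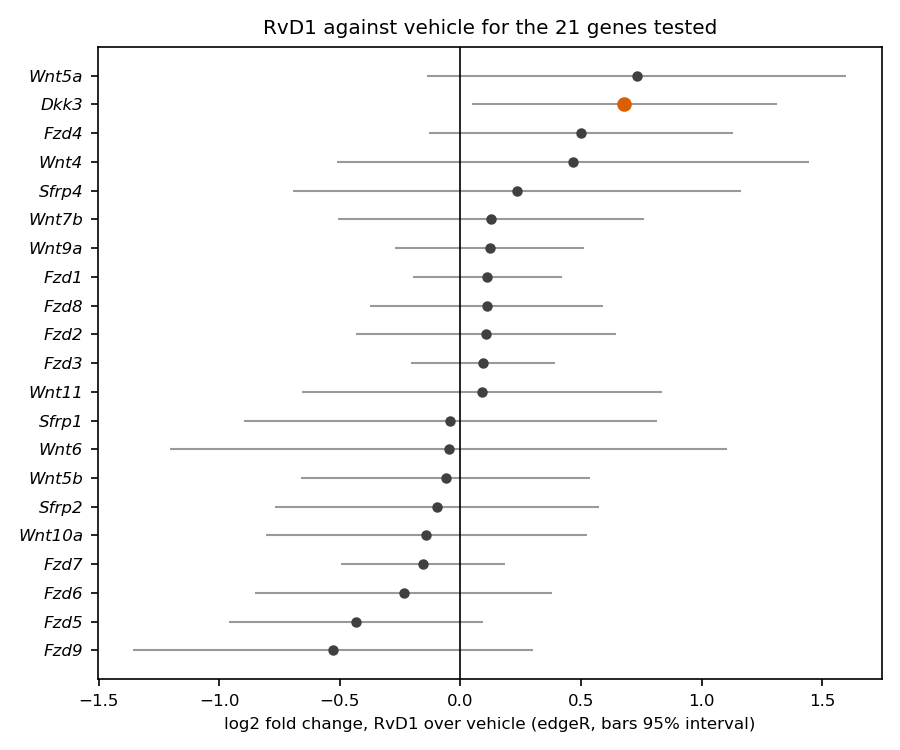
Log2 fold change of RvD1 over vehicle (x axis) with its 95% interval for each of the 21 genes tested by edgeR, ordered by size. The interval of Dkk3 (orange) lies above 0 and the other 20 intervals include 0, and 0 genes passed after adjustment.

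Dkk3 (chr7:112116017-112159057, minus strand) had 214, 136 and 116 expected counts with RvD1 and 63, 81 and 83 with vehicle. Its levels were 5.01, 2.37 and 3.27 TPM with RvD1 and 1.92, 2.19 and 2.11 TPM with vehicle. All 3 RvD1 libraries lay above all 3 vehicle libraries, but RvD1 replicate 2 exceeded the highest vehicle library only slightly. The log2 fold change was 0.68 (SE 0.278, 95% interval 0.05 to 1.31, edgeR unadjusted p = 0.0378, adjusted p = 0.971). Without RvD1 replicate 1 it was 0.37 with an unadjusted p of 0.155 by edgeR. That library had the highest fibro-adipogenic, tenocyte, mural and Schwann marker sums and the highest Chodl, Megf10 and Pax7, and their part was not tested. The edgeR unadjusted p of Dkk3 also rose above 0.05 without RvD1 replicate 3 (0.0510) or without vehicle replicate 1, 2 or 3 (0.105, 0.0674 and 0.0726). Without RvD1 replicate 2 it was 0.00867 by edgeR.

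Wnt5a (chr14:28504750-28527448, plus strand), a ligand best known for signaling without β-catenin, had 32, 53 and 34 counts with RvD1 and 10, 20 and 25 counts with vehicle. In TPM the values were 0.82, 0.75 and 1.10 with RvD1 and 0.32, 0.88 and 0.66 with vehicle. The groups were separated on normalized counts but overlapped in TPM. The log2 fold change was 0.73 (SE 0.383, 95% interval -0.14 to 1.60, edgeR unadjusted p = 0.0892, adjusted p = 0.971). It ranged from 0.47 to 0.97 when single libraries were left out and was 0.85 without RvD1 replicate 1. Exons of Wnt5a overlap those of Gm2670 on the opposite strand, and the library kit does not mark strand, so reads of the 2 genes cannot be told apart where they overlap.

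Fzd4 had a log2 fold change of 0.50 (SE 0.277, 95% interval -0.13 to 1.13, edgeR adjusted p = 0.971), which was carried by a single library. Without RvD1 replicate 1 the value was 0.05. The unadjusted p of Fzd4 was 0.106 by edgeR and 0.0494 by DESeq2. For Fzd7 it was -0.16 (SE 0.149, 95% interval -0.49 to 0.18) and for Fzd1 0.11 (SE 0.136, 95% interval -0.20 to 0.42), so a doubling of either lay outside the interval. Fzd5, a receptor able to transmit β-catenin signals, measured 1.77, 1.58 and 1.33 TPM with RvD1 and 1.86, 2.39 and 2.70 TPM with vehicle. The groups did not overlap in TPM but did on normalized counts, and the log2 fold change of -0.43 (SE 0.232, edgeR unadjusted p = 0.0952) did not pass. The other 5 receptors had values between -0.53 (Fzd9) and 0.11 (Fzd8).

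Sfrp2 had a log2 fold change of -0.10 (SE 0.295, 95% interval -0.77 to 0.57, edgeR adjusted p = 0.983). Leaving out the highest library, RvD1 replicate 3, gave -0.54 (edgeR unadjusted p = 0.0217, adjusted p = 0.788). Leaving out the lowest, RvD1 replicate 2, gave 0.17 (edgeR unadjusted p = 0.504). Sfrp4 and Sfrp1 had values of 0.23 (SE 0.409) and -0.04 (SE 0.377). The 3 ligands with the highest levels, Wnt9a, Wnt7b and Wnt11, had values of 0.12 (SE 0.172), 0.13 (SE 0.279) and 0.09 (SE 0.329). Those of Wnt4, Wnt6, Wnt5b and Wnt10a were 0.47, -0.05, -0.06 and -0.14. Like Wnt5a, the exons of Wnt7b, Wnt11, Fzd5, Fzd6, Sfrp2 and Rspo3 overlap a gene on the opposite strand.

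**Figure D4:**
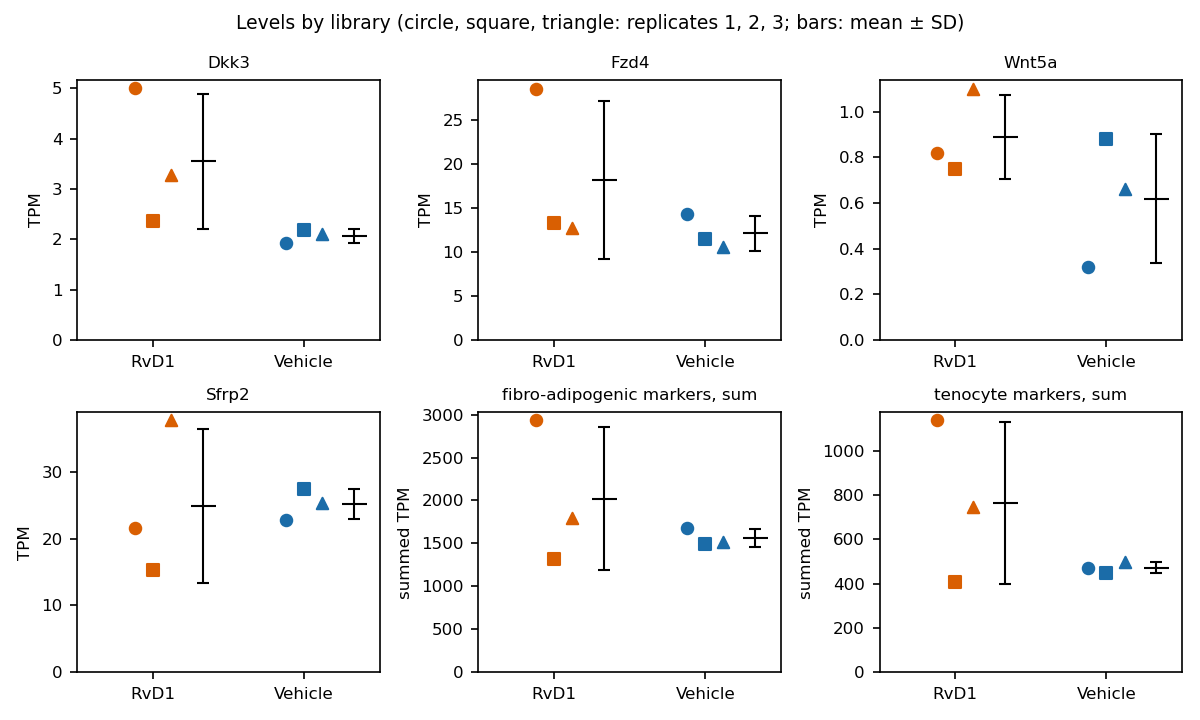
TPM of Dkk3, Fzd4, Wnt5a and Sfrp2 and summed TPM of 12 fibro-adipogenic and 5 tenocyte markers (y axes from 0) in each library, with circles, squares and triangles for replicates 1, 2 and 3 and black bars for the mean ± SD of each group (n = 3). RvD1 replicate 1 is the highest library for Dkk3, Fzd4 and both marker sums, and RvD1 replicate 3 is the highest for Wnt5a and Sfrp2. RvD1 replicate 1 is also the highest for the mural and Schwann marker sums and for Chodl and Pax7, which are not plotted.

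The rest of the Wnt pathway was read from a list of 63 other genes, arranged by role, of which 55 were tested. This list too was drawn up with earlier results of these data known. None of the 55 genes changed at an adjusted p of 0.05. At an unadjusted p under 0.05, 4 of 55 were called, all higher with RvD1, against 3.47% of all genes tested (1.83% higher). The groups did not overlap for 7 of 55, all higher, against 9.62% of all genes (4.8% higher). The log2 fold change was above 0 for 39 and below 0 for 16 genes, with a median of 0.08. Over all 14494 genes tested, 7749 were above and 6745 below 0, with a median of 0.01. Without RvD1 replicate 1 there were 31 above and 24 below 0, with a median of 0.02, and 2 of 55 were called, Nkd2 and Dvl1, against 4.33% of all genes in that fit.

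Nkd2, which encodes a Dishevelled-binding antagonist of Wnt signaling, had the smallest unadjusted p on the list. Its levels were 12.16, 5.57 and 6.23 TPM with RvD1 and 4.47, 3.98 and 2.41 TPM with vehicle, and the groups did not overlap. The log2 fold change was 1.01 (SE 0.305, 95% interval 0.31 to 1.70, edgeR unadjusted p = 0.00949, adjusted p = 0.971), and it was 0.63 without RvD1 replicate 1. Its unadjusted p stayed under 0.05 in all 14 alternative fits, and its adjusted p in none.

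Frzb, a secreted Wnt-binding relative of the Sfrps, measured 1.29, 0.74 and 0.98 TPM with RvD1 and 0.67, 0.52 and 0.54 TPM with vehicle (log2 fold change 0.87, SE 0.338). Pygo1, a nuclear co-factor of β-catenin, measured 1.72, 0.91 and 1.17 TPM with RvD1 and 0.89, 0.47 and 0.71 TPM with vehicle (log2 fold change 0.79, SE 0.307). Tcf7l2, a DNA-binding partner of β-catenin, measured 29.93, 24.46 and 23.95 TPM with RvD1 and 22.27, 17.86 and 20.09 TPM with vehicle (log2 fold change 0.26, SE 0.107). All 3 were separated between the groups. Without RvD1 replicate 1 their log2 fold changes were 0.81, 0.52 and 0.21, respectively, with edgeR unadjusted p of 0.0796, 0.105 and 0.0733. Leaving out other single libraries also took them past 0.05, with the highest edgeR unadjusted p at 0.0904 for Frzb, 0.113 for Pygo1 and 0.151 for Tcf7l2.

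Components needed to make and receive a Wnt signal were transcribed at levels that ranged widely, from 2.352 TPM for Lrp5 to 111.0 TPM for Wls. Wls, which carries Wnts to the surface, and Porcn, which attaches their lipid, averaged 111.0 and 5.788 TPM. Lrp6 averaged 18.16 TPM and Lrp5 2.352 TPM, and the alternative receptors Ryk and Ptk7 averaged 77.61 and 21.0 TPM. The R-spondin receptors Lgr5 and Lgr4 averaged 5.775 and 5.123 TPM although R-spondin transcripts themselves were nearly absent. Their relative Lgr6 had 9, 10 and 14 counts with RvD1 and 5, 2 and 0 counts with vehicle, and it did not pass the filter. The ubiquitin ligase Znrf3 averaged 5.772 TPM, while its relative Rnf43 had 3 counts, all in 1 library.

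Inside the cell, Ctnnb1 (β-catenin) averaged 469.9 TPM with a log2 fold change of 0.04 (SE 0.0764), and the kinase Csnk1a1, which primes β-catenin for destruction, averaged 317.0 TPM with 0.05 (SE 0.0796). These were the most precisely measured values of those named. Kremen1, a Dickkopf receptor, averaged 61.39 TPM, and Apcdd1, a surface inhibitor, averaged 2.317 TPM. The polarity genes Daam1 and Vangl1 averaged 14.41 and 12.19 TPM, and the nuclear factors Pygo2 and Tle1 47.99 and 24.5 TPM. Axin2, the usual transcriptional readout of β-catenin activity, was low and did not pass the test, with 1.64, 2.31 and 2.19 TPM with RvD1 and 0.89, 1.65 and 2.39 TPM with vehicle (log2 fold change 0.07, SE 0.367). Myc and Ccnd1, which are targets of many pathways, averaged 181.3 and 74.05 TPM, with log2 fold changes of 0.08 (SE 0.231) and -0.16 (SE 0.17).

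**Figure D5:**
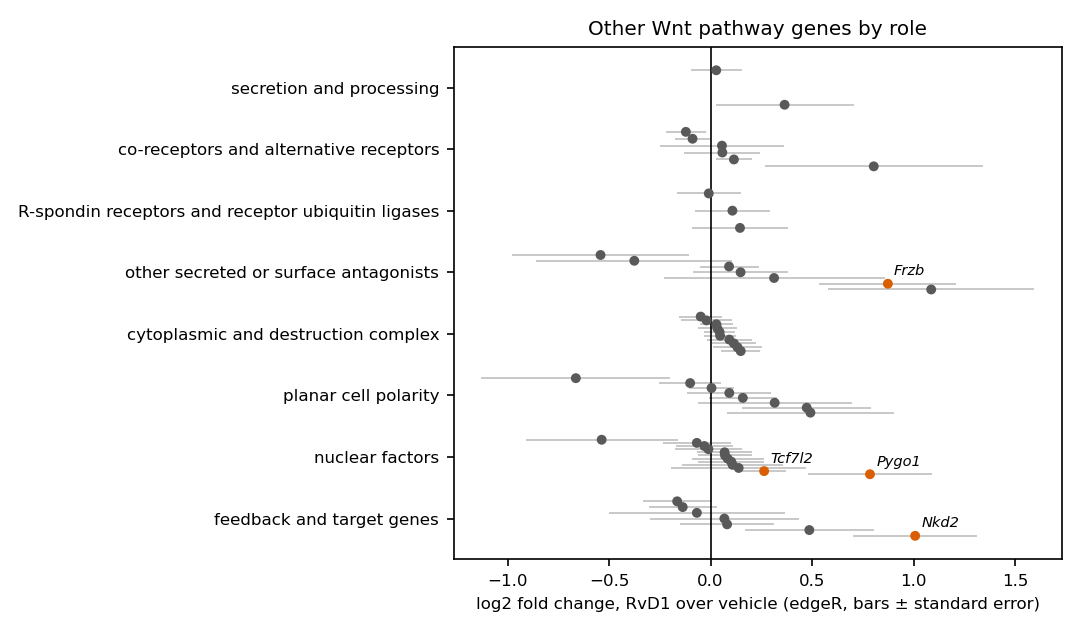
Log2 fold change of RvD1 over vehicle (x axis, bars ± standard error from edgeR) for the 55 tested genes of the pathway list, grouped by role. The 4 genes with an unadjusted p under 0.05 (orange, named) are higher with RvD1, and 0 genes passed after adjustment.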

How the data were processed

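RNA was measured by SMART-Seq v4 and Nextera XT sequencing of sorted MuSCs, 1 library per mouse. Per the submitters' processing notes, STAR 2.5.0a, RSEM and the mm10 build were used. The deposited expected counts are RSEM gene estimates with no scaling for depth. In the deposited TPM table, the authors divided by transcript length and set every library to the same sum. An FPKM table was not used. The labels give an RNA input of 1 ng and the paper's methods another value.

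Expected counts were rounded to whole numbers and tested in R 4.3.3 with edgeR 4.0.16 (TMM factors, filterByExpr by group, quasi-likelihood test without robust estimation, two-sided), with Benjamini-Hochberg adjustment over all 14494 genes tested. The SE of a log2 fold change was its size over the square root of F. Log2 CPM used a prior count of 2. Alternatives were DESeq2 1.42.0 and limma 3.58.1 with sva 3.50.0, other normalization, filter and pseudocounts, and each library left out. Removal of surrogate variables followed the study's methods, which give no number of them, and 1 was removed here. The fit after removal did not account for that step, so its unadjusted p can be too small. Scripts were tested on simulated data. Totals ranged from 16148026 to 28149176 expected counts. Gene positions came from GENCODE M21 on GRCm38.

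The members and lists were chosen with earlier results of these data known. Values in every library were given for the 3 highest members of each class that passed the filter, for members with an unadjusted p under 0.05 or groups that did not overlap, and for pathway genes past that p, and mean levels for the 2 highest pathway genes of each role. Fzd5, Axin2, Lrp5, Lrp6, Lgr4, Lgr6 and Rnf43 were added after their values were seen.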

Additional observations from a re-analysis of the deposited data

How the results depend on the processing

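The 31 genes named by rule were recomputed under 14 alternatives each. Of these 434 values, 389 kept their direction and their side of the adjusted threshold, 45 reversed, and 0 passed it. The number of genes past the adjusted threshold was 0, but 12 with no filter on low counts and 0 to 1 when single libraries were left out. The count of members past an unadjusted p of 0.05 (1 of 21, 3.47% of all genes) became 2 of 38 with DESeq2 (2.05% of all genes) and with no filter (4.29%), 5 of 38 with limma-voom after removal of surrogate variables (11.2%), 0 of 21 with limma-voom without them (3.33%), 0 on log2(TPM + 1) (4.35%) and 0 on log2(TPM + 0.1) (4.32%), and 0 to 2 with a library left out (1.9% to 6.83%). For the pathway list (4 of 55) it became 2 of 62 with DESeq2, 8 of 62 with surrogate variables removed, and 1 to 6 of 55 with a library left out (2 without RvD1 replicate 1, 1 without vehicle replicate 2 or 3), beside the same shares of all genes. Members higher with RvD1 numbered 24 of 38 with DESeq2, with no filter and with surrogate variables removed, since more genes were then tested. That count and the one over pathway genes were added after the data were seen. Members whose groups did not overlap (2 of 21) numbered 2 to 5 with a library left out, where 15% to 23.2% of all genes did not overlap, against 9.62% with all libraries. In CPM, which is not scaled for length, Wnt9a held 29.23% and Sfrp2 82.93% of the class sum.

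The values that changed sign included Porcn (0.36), Sfrp4 (0.23) and Ccnd1 (-0.16), beside others nearer 0. With surrogate variables removed, Sfrp1 was 0.0125, Wls -0.0132, Znrf3 0.0685 and Tle1 0.0255. With limma-voom without them, Sfrp1 was 0.0631 and Znrf3 0.0022. On log2(TPM + 1) and log2(TPM + 0.1), Sfrp1 was 0.0279 and 0.0753, Ryk 0.0116 and 0.0117, Znrf3 0.22 and 0.26, Tle1 0.0062 and 0.0058, and Ccnd1 0.0499 and 0.0504. Daam1 was -0.0032 with DESeq2 and -0.00025 with its size factors in edgeR. With single libraries left out, log2 fold changes ran from -0.25 to 0.29 for Wnt7b, -0.13 to 0.43 for Wnt11, -0.54 to 0.17 for Sfrp2, -0.13 to 0.58 for Sfrp4, -0.34 to 0.28 for Sfrp1, -0.12 to 0.10 for Wls, -0.0682 to 0.57 for Porcn, -0.12 to 0.34 for Lgr5, -0.13 to 0.0919 for Znrf3, -0.0700 to 0.19 for Kremen1, -0.0657 to 0.0567 for Daam1, -0.0090 to 0.19 for Pygo2, -0.18 to 0.0707 for Tle1 and -0.19 to 0.27 for Myc. The cause was not tested.

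Replicate numbers recurred in both groups, but the deviations of same-numbered libraries correlated at 0.310, -0.00071 and 0.126, and 3 of 6 libraries were closest to their own number, so the numbers were not taken to pair the mice. With the replicate number as a block, 2 members (Dkk3 and Fzd4) had an unadjusted p under 0.05, as did 6.18% of all genes against 3.47% without the block, and 0 genes passed after adjustment. Depth limits the low members: Dkk2, Fzd10 and Sfrp5 had too few counts to pass the filter.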
